A study of Homo sapiens with 3 samples.

Results

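The genes described here encode the machinery that copies DNA: the proteins that load and start the replicative helicase, the helicase itself, the polymerases and clamp at the fork, the enzymes that make deoxynucleotides, and factors that restore chromatin behind the fork. They were chosen by name, as 51 listed genes, and 24 of the 51 were among the 14884 genes that the platform annotation named. The other 27 were not analysed here: all 6 origin recognition genes, all 9 polymerase and primase genes, all 5 clamp loader genes, all 3 single-strand binding genes, LIG1, TK1, CHAF1A and CHAF1B. Expression was profiled in BE(2)-C, an established human neuroblastoma line in which MYCN is amplified, and every value below comes from that 1 line. All 3 groups were transfected for 40 hours: the control group with a control siRNA, and the other groups with WDR5 siRNA-1 and with WDR5 siRNA-2. WDR5 is a shared subunit of the histone H3 lysine 4 methyltransferase complexes. Each group had 1 Affymetrix HuGene-2_0-st array, so no value has a replicate error, a ratio says how 1 array differs from another, and no p-value was computed. The series places WDR5 beside transcription of N-Myc targets, and the comparison asks which replication genes differed from control after WDR5 siRNA.

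DNA replication is prepared in G1, when the origin recognition complex, CDC6 and CDT1 load the hexamer of MCM2 to MCM7 onto DNA. In S phase the kinase pair CDC7 and DBF4 helps to join the loaded hexamer to CDC45 and the 4-subunit GINS complex. MCM10 helps to turn this assembly into an active helicase. Transcription of many of these genes is known to be raised by E2F factors as cells leave G1, so their RNA follows the cell cycle. In a bulk culture, fewer cells in S phase and less RNA per cell cannot be told apart.

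The targeted transcript was lower on both WDR5 siRNA arrays. WDR5 stood at a log2 level of 9.46 on the control array and at 7.90 on each of the others, which is 33.9% of control. Array medians over all 53617 rows were 5.81, 5.79 and 5.79. Many values were exactly equal between arrays, with a tie on at least 2 arrays in 64.7% of rows, so some differences below appear as an exact 0. Of 8 adrenergic neuroblastoma markers, 6 were measured and all 6 had a mean above the gene median of 6.78. Their log2 ratios to control with siRNA-1 and siRNA-2 were -0.18 and 0.04 for PHOX2A, -0.02 and -0.32 for GATA3, -0.02 and -0.35 for HAND2, 0.23 and 0.39 for ISL1, 0 and 0 for TH, and -0.81 and 0.51 for DBH. Of the Schwann, stromal, leukocyte and endothelial markers, 5 of 10 were measured. SOX10, S100B and VWF had the same value on all 3 arrays, 6.96, 6.83 and 5.89 in turn. The means of SOX10, S100B and CD68 were also above the gene median, so such a level was not particular to the adrenergic markers. The endothelial marker PECAM1 stood at 4.29, 4.88 and 5.12, ratios of 0.59 and 0.83, and the macrophage marker CD68 at 7.75, 8.14 and 7.83, ratios of 0.38 and 0.08. The part of these markers in the results below was not tested. The file gives no detection calls, so whether a gene was above background was not decided.

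As a group the replication genes lay below control, more with siRNA-2 than with siRNA-1. The median log2 ratio to control over the 24 measured genes was -0.15 with siRNA-1 and -0.37 with siRNA-2, and the median of all measured genes was 0 with each. Because 23 of the 24 were among the 3721 genes with a mean level at or above the 75th percentile, counts are read against these higher-level genes as well as against all genes. With siRNA-1, 18 of the 24 were lower than control by any amount, against 29.4% of all genes and 37.7% of the higher-level genes. With siRNA-2, 23 of the 24 were lower, against 27.8% and 44%. With both siRNAs, 18 were lower, against 15.3% and 22.5%. None was higher with both, against 13% and 24.7%. A ratio of exactly 0 counts as neither lower nor higher. It was found for 6471 of all genes with siRNA-1 and for 6985 with siRNA-2. Among the higher-level genes it was found for 570 and 597, and among the 24 for 2 and 0. Shares by any amount, here and below, are lowered by these ties, more so for all genes than for the 24. The 2 ratios of a gene share the single control array, so their agreement is not independent. DUT was the exception in level, and lay below the median of all genes.

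The differences were modest in size. None of the 24 was at least 1.5-fold lower with both siRNAs, against 0.571% of all genes and 0.806% of the higher-level genes. Likewise, 0 were higher by as much with both, against 0.356% and 0.887%. With siRNA-1, 2 genes (MCM3 and MCM8) were at least 1.5-fold lower (8.33% of the 24), against 2.77% of all genes and 4.86% of the higher-level genes, and 0 were higher, against 1.55%. With siRNA-2, 4 genes (FEN1, GINS4, TYMS and GINS2) were at least 1.5-fold lower (16.7%), against 2.37% and 4.14%, and 0 were higher, against 1.34%. That count was 3 when probe sets were averaged (GINS4 then at -0.39) and 3 under quantile normalization (GINS2 then at -0.54). No gene was thus lower with both siRNAs at this limit, which for 24 genes is near the share of all genes. The next in order with siRNA-2, RRM2, had a ratio of -0.56 and missed the limit, a log2 difference of 0.58, whereas GINS2 passed it at -0.59.

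**Figure D1:**
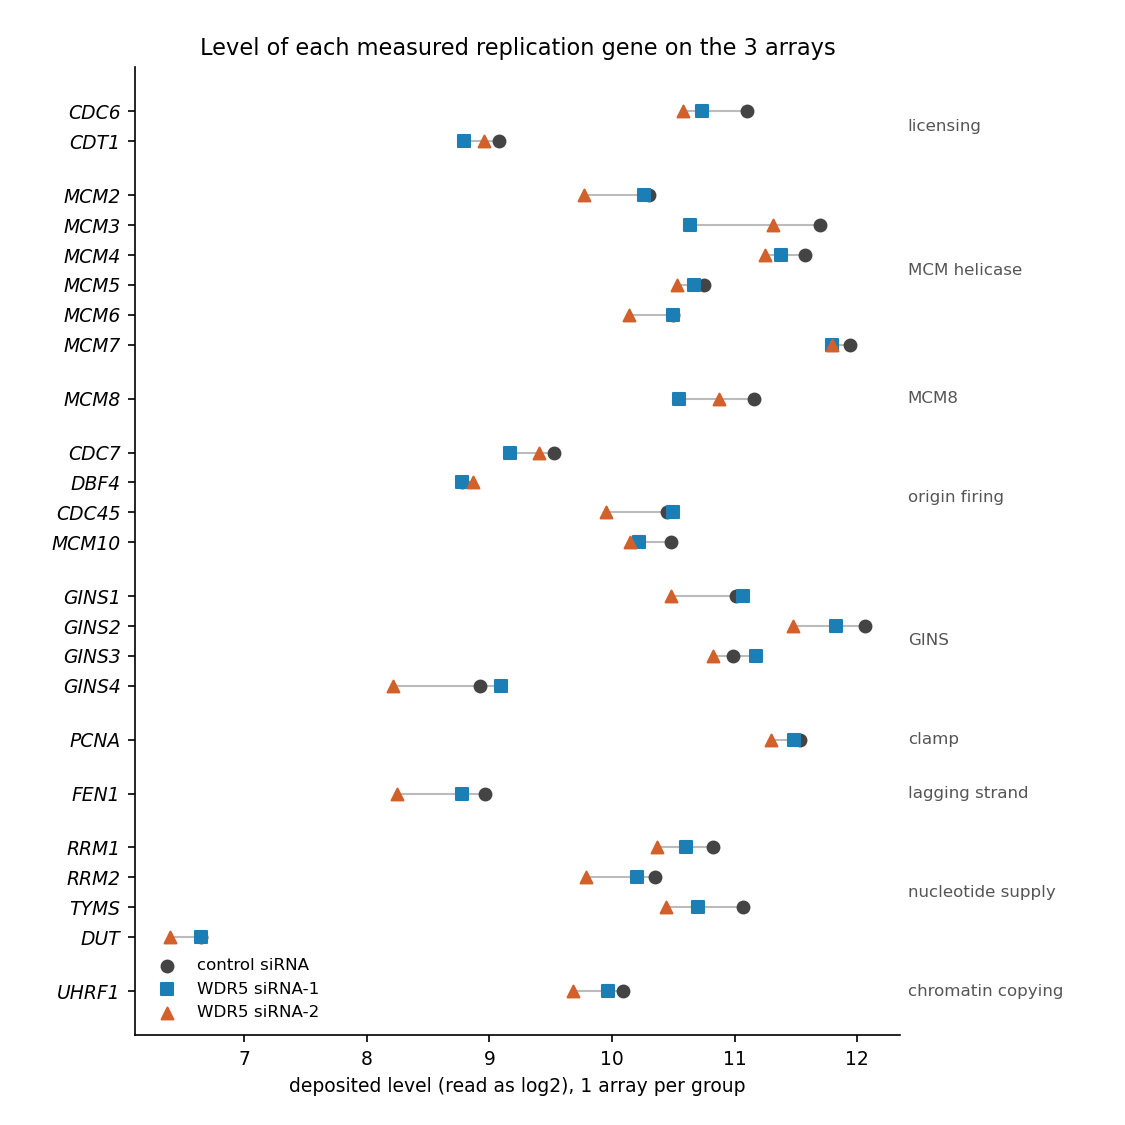
Deposited level, read as log2 (x axis), of each of the 24 measured replication genes (y axis, grouped by role) on the control (circle), siRNA-1 (square) and siRNA-2 (triangle) arrays, with 1 array per group and no error bars. For most genes the circle lies furthest right, and the control symbol of MCM6, DBF4 and DUT is hidden under the square.

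The 3 genes with the largest ratio shared by both siRNAs were MCM3, TYMS and CDC6, with smaller ratios of -0.38, -0.37 and -0.37. Their promoters are shown because of this rank. The genes encode a helicase subunit, a nucleotide enzyme and a loading factor. The sequences are from RefSeq, build GRCh38.p14, and run from 250 bases before the annotated start to 30 bases after it, at chr6:52284713-52284992 on the minus strand for MCM3, chr18:657403-657682 on the plus strand for TYMS and chr17:40287629-40287908 on the plus strand for CDC6. Capitals mark matches, on either strand, to the E2F forms TTTCGCGC, TTTGGCGC, TTTCCCGC and TTTGCCGC and to the letters CCAAT, which are bound by the factor NF-Y.
MCM3: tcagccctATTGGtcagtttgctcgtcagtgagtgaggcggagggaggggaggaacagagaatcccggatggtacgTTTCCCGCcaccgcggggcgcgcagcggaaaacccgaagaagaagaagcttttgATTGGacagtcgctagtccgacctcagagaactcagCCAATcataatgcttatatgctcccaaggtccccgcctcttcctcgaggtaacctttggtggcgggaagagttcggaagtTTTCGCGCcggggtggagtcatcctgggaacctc
TYMS: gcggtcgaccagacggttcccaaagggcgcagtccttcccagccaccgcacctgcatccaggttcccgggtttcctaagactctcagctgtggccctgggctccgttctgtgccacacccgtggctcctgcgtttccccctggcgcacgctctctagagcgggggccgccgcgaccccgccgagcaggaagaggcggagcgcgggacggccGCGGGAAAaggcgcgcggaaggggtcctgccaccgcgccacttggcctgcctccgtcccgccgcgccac
CDC6: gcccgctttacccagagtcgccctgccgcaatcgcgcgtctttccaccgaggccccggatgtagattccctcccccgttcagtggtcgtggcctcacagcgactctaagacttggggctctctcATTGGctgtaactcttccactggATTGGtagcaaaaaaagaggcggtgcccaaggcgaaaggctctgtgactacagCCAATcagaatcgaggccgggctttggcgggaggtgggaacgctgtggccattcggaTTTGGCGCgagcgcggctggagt

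The MCM3 window held an E2F form starting 174 bases before the start and another 4 bases before it, and CCAAT letters at 3 places. The TYMS window held 1 E2F form, 39 bases before the start, and no CCAAT. The CDC6 window held 1 E2F form just after the start and CCAAT at 3 places. A promoter window of 300 bases, 250 before and 50 after the start, was found for 21 of the 24 genes, 33 windows in all, since some genes have several starts. An E2F form was present in at least 1 window of 15 of the 21 genes (71.4%), against 5.38% of the 10749 measured genes with a window. Counted by window it was in 16 of the 33 (48.5%), against 3.31% of all 35116 windows. CCAAT was present for 13 of the 21 genes (61.9%), against 41.4% of measured genes, and in 57.6% of the 33 windows, against 34.6% of all windows. Both were present for 9 genes, against 2.59% of measured genes.

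The same windows were searched on both strands for other letters. The cell cycle homology forms TTTGAA or TTTAAA were in windows of 5 of the 21 genes (23.8%), against 23.6% of measured genes, and in 15.2% of the 33 windows, against 24% of all windows. The E-box letters CACGTG, which MYC family proteins are known to bind, were in those of FEN1, MCM2, MCM7 and MCM8 (4 of 21, or 19%), against 11% of measured genes, and in 12.1% of the 33 windows, against 7.26% of all windows. Matches of different motifs may overlap, and each motif was counted on its own. The 15 genes with an E2F form had a median ratio of -0.15 for siRNA-1 and -0.36 for siRNA-2, and the 6 without (CDC45, DBF4, FEN1, MCM10, RRM1 and RRM2) had -0.16 and -0.47. A match is a description of letters and shows no binding in these cells.

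The loading factors were both lower. CDC6, an ATPase that helps to place the helicase on origins, stood at 11.10 on the control array, 10.73 with siRNA-1 and 10.58 with siRNA-2, or 77.6% and 69.6% of control. CDT1, which brings the MCM hexamer to the origin and is destroyed in S phase, stood at 9.08, 8.80 and 8.96, or 82.3% and 92.2% of control. Control was the highest array for each, and the order of the siRNAs was opposite in the pair.

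All 6 subunits of the MCM2 to MCM7 hexamer were lower than control with both siRNAs, but by very unequal amounts. MCM3 stood at 11.70 on the control array, 10.64 with siRNA-1 and 11.31 with siRNA-2, which is 2.08-fold and 1.30-fold lower. Of all genes, 0.524% had a ratio as low as that of MCM3 with siRNA-1, and of the higher-level genes 1.21%. It was also 1.60-fold lower on the siRNA-1 than on the siRNA-2 array. The other 5 subunits had ratios from -0.19 (MCM4) to -0.003 (MCM6) with siRNA-1, and from -0.53 (MCM2) to -0.15 (MCM7) with siRNA-2.

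Thus the RNAs of subunits whose proteins join the complex in equal numbers did not share 1 ratio. With 1 array per group, the differences between them were not tested. MCM2 stood at 10.30, 10.26 and 9.77, so it was near control with siRNA-1 and at 69.4% of control with siRNA-2. MCM6 stood at 10.498, 10.495 and 10.14, a like pattern in which the siRNA-2 array alone was low. MCM4 had ratios of -0.19 and -0.33 and MCM5 of -0.08 and -0.22. MCM7 had exactly the same value, 11.80, on both siRNA arrays, against 11.94 on the control array. The hexamer's median was -0.12 with siRNA-1 and -0.34 with siRNA-2, and without MCM3 it was -0.08 and -0.33.

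MCM7 carries 3 microRNA genes in its body, which have probe sets of their own on the array. MIR25 had ratios of 0 and -0.16, MIR93 of -0.09 and -0.30, and MIR106B of 0 and 0. With siRNA-1 all 3 were nearer to control than MCM7 (-0.15 with each siRNA), and with siRNA-2 they spread to both sides of it. The files do not say whether these probe sets read the microRNA precursor or the MCM7 transcript around it.

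MCM8, a relative of the hexamer known for its part in homologous recombination, resembled MCM3. It stood at 11.16 on the control array, 10.55 with siRNA-1 and 10.87 with siRNA-2, or 1.53-fold and 1.22-fold lower. Both siRNA arrays were below control and the siRNA-1 array was the lowest. Its head-to-head neighbour TRMT6, a tRNA methyltransferase subunit gene whose start lies 119 bases away, had ratios of -0.11 and 0.15 and so did not share this pattern.

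The genes of origin firing were mixed. CDC7, the catalytic subunit of the firing kinase, stood at 9.53, 9.17 and 9.40, or 77.9% and 91.7% of control. DBF4, its activating subunit, stood at 8.775 on the control and siRNA-1 arrays and at 8.87 with siRNA-2, and was the 1 member above control with siRNA-2. The pair that forms 1 kinase therefore differed in direction with siRNA-2. MCM10, a scaffold of helicase activation, stood at 10.48, 10.22 and 10.14 and was the member of this group with the largest ratio shared by both, -0.26. CDC45, a subunit of the active helicase, stood at 10.45, 10.50 and 9.95, near control under siRNA-1 (0.05) and low under siRNA-2 (-0.49).

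The GINS genes, whose products travel with CDC45, differed between the siRNAs. All 4 were lower on the siRNA-2 than on the siRNA-1 array, and the group median was 0.11 with siRNA-1 and -0.56 with siRNA-2. GINS4 stood at 8.92 on the control array, 9.10 with siRNA-1 and 8.22 with siRNA-2, so it was 1.63-fold lower with siRNA-2 and 1.84-fold higher on the siRNA-1 than on the siRNA-2 array. GINS4 has a second probe set with much lower values, 5.02, 4.52 and 4.94, whose ratios of -0.50 and -0.08 run the other way. The sign of GINS4 with siRNA-1, and with it that of the group median (-0.06 when the probe sets are averaged), thus depends on the probe set.

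GINS1 stood at 11.02, 11.07 and 10.48, with the siRNA-2 array alone low, at 69% of control. GINS2 stood at 12.07, 11.82 and 11.47, and was the only GINS gene lower than control with both siRNAs, 1.18-fold and 1.51-fold. GINS3 stood at 10.98, 11.17 and 10.83, ratios of 0.19 and -0.16. The control array lay between the siRNA arrays for GINS1, GINS3 and GINS4, as it did for CDC45.

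**Figure D2:**
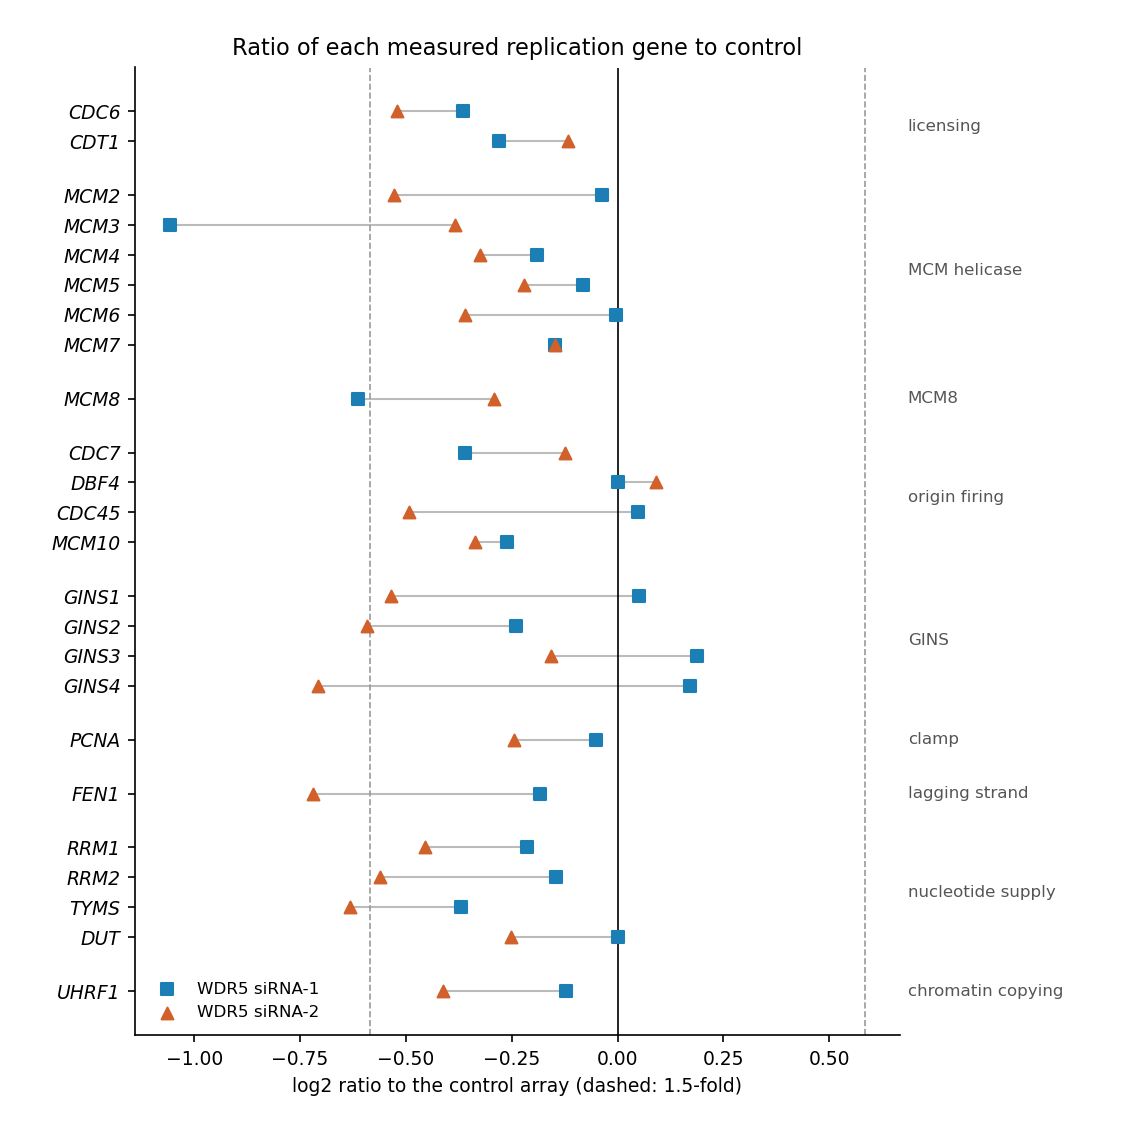
Log2 ratio to the control array (x axis) of each of the 24 measured replication genes (y axis, grouped by role) with siRNA-1 (squares) and siRNA-2 (triangles), with dashed lines at 1.5-fold and no error bars because each group has 1 array. MCM3 and MCM8 lie beyond the lower line with siRNA-1, and FEN1, GINS4, TYMS and GINS2 with siRNA-2.

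Of the clamp, clamp loader and lagging strand genes, only 2 could be read. FEN1, the nuclease that trims Okazaki fragments, stood at 8.96, 8.78 and 8.25, which is 88% and 60.7% of control. It had the lowest ratio of all 24 genes with siRNA-2, -0.72. As low were 1.29% of all genes and 2.07% of the higher-level genes. PCNA, the sliding clamp on which FEN1 and the polymerases work, stood at 11.54, 11.49 and 11.29, or 96.5% and 84.4% of control. Both genes had the order control, siRNA-1, siRNA-2 from high to low, and PCNA the smaller differences.

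Their head-to-head neighbours stayed closer to control. TMEM258, an oligosaccharyltransferase subunit gene beside FEN1, had ratios of 0.07 and -0.09, against -0.18 and -0.72 for FEN1. CDS2, a phospholipid synthesis gene beside 1 of the 2 annotated starts of PCNA, had ratios of 0.01 and -0.01, against -0.05 and -0.24. Of 8 neighbours with a start on the opposite strand within 1000 bases, 3 were measured (TRMT6, TMEM258 and CDS2). The antisense transcript PCNA-AS1 had ratios of -0.17 and 0, but the labels do not say whether its probes and those of PCNA are kept apart by strand.

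The genes of nucleotide supply were lower with siRNA-2 as a group. TYMS, thymidylate synthase, stood at 11.07 on the control array, 10.70 with siRNA-1 and 10.44 with siRNA-2, or 1.29-fold and 1.55-fold lower. RRM1 and RRM2 encode the large and small subunits of ribonucleotide reductase, which makes deoxynucleotides. RRM1 stood at 10.82, 10.61 and 10.37, or 86.3% and 72.9% of control, and RRM2 at 10.35, 10.21 and 9.79, or 90.4% and 67.8%. The subunits kept the same order of arrays, with control highest and siRNA-2 lowest.

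DUT, which breaks down dUTP so that uracil is kept out of DNA, stood at 6.645 on the control and siRNA-1 arrays and at 6.39 with siRNA-2. Its level was below the gene median of 6.78. The median of the 4 measured genes was -0.18 with siRNA-1 and -0.51 with siRNA-2. UHRF1, which guides maintenance DNA methylation after replication, stood at 10.09, 9.97 and 9.68, or 91.9% and 75.1% of control. It was the 1 measured gene of chromatin copying, and followed the order seen for TYMS, RRM1 and RRM2.

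When the siRNA arrays were set against each other, 18 of the 24 genes were lower with siRNA-2, against 29.3% of all genes and 49.7% of the higher-level genes. The 5 that ran the other way were MCM3, MCM8, CDC7, CDT1 and DBF4, and MCM7 was tied. The siRNA arrays were also tied for 6156 of all genes and 489 of the higher-level genes, which lowers those shares. At 1.5-fold, GINS4 and GINS1 were higher on the siRNA-1 array (8.33% of the 24), against 2.63% of all genes and 4.51% of the higher-level genes. MCM3 alone was lower there (4.17%), against 2.8% and 5.54%. Averaging probe sets left 1 gene higher on the siRNA-1 array, without GINS4. GINS1 was at the limit, 1.501-fold. Without MCM3, the median of the remaining 23 genes was -0.14 with siRNA-1 and -0.36 with siRNA-2.

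**Figure D3:**
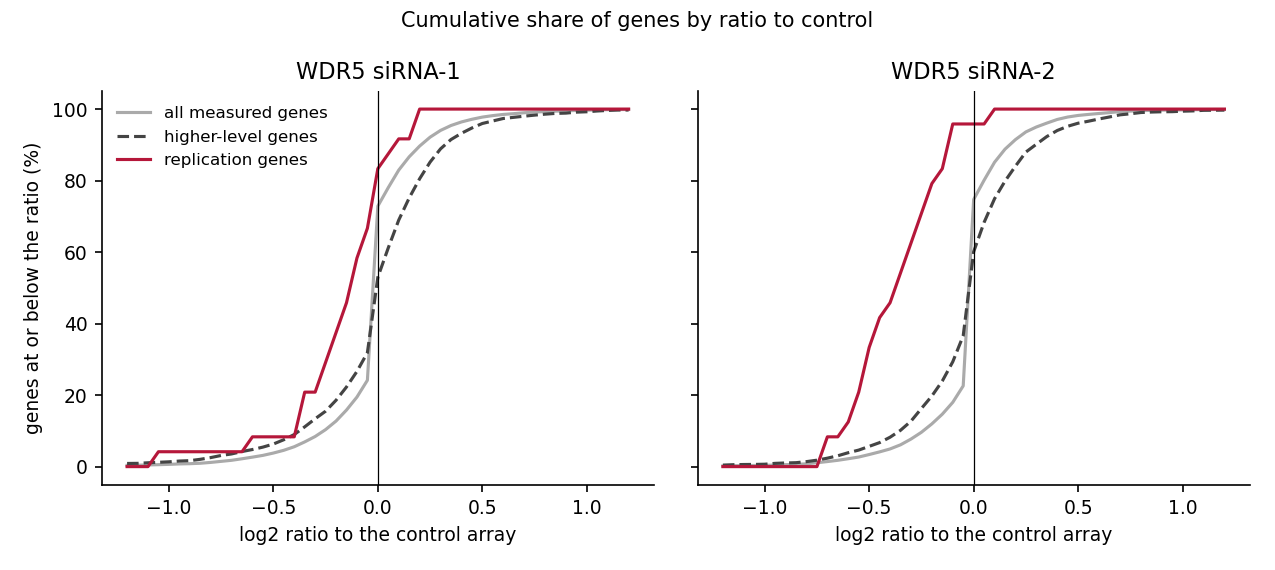
Percent of genes (y axis) whose log2 ratio to the control array is at or below the value on the x axis, for siRNA-1 (left) and siRNA-2 (right), for all 14884 genes (grey), the 3721 higher-level genes (dashed) and the 24 replication genes (red). The red curve lies left of the others over most of its length with each siRNA. With siRNA-1 the gap is widest at small ratios, and the red curve falls just below the dashed curve at -0.65 and -0.4. It also lies below both other curves at the low end, at -1.1 and lower with siRNA-1 and at -0.75 and lower with siRNA-2.

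A wider set of replication genes lay in the same direction. Of 46 further genes of initiation, fork protection, lagging strand, histone deposition and nucleotide supply, 31 were measured, and their median ratio was -0.09 for siRNA-1 and -0.24 for siRNA-2. By any amount, 18 of the 31 were lower under both siRNAs, against 15.3% of all genes and 22.5% of the higher-level genes. The 4 higher under both (TOP1, ASF1A, RRM2B and IMPDH2) compare with 13% and 24.7%. ASF1B, a histone chaperone gene active in S phase, was the 1 gene at least 1.5-fold lower with both, against 0.571% of all genes. It stood at 10.74, 10.11 and 9.97, or 64.8% and 58.5% of control. Its paralog ASF1A, by contrast, had ratios of 0.11 and 0.25.

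By role, of the 10 measured genes of initiation and fork protection, 7 were lower with both siRNAs and 0 were higher, with medians of -0.18 and -0.30. Of 8 further nucleotide genes, 4 were lower with both and 2 were higher. For all genes these shares were 15.3% lower and 13% higher with both. SAMHD1, which degrades deoxynucleotides, had the lowest ratio of the 31 with siRNA-1 and the highest with siRNA-2, -0.81 and 0.33. Apart from ASF1B, the genes named here were chosen after their values were seen.

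Lists for the neighbouring stages of the cell cycle also had medians below control. For 12 genes of entry into S phase the median was -0.32 under siRNA-1 and -0.23 under siRNA-2. Of these, 2 passed 1.5-fold on the low side under both, against 0.571% of all genes and 0.806% of the higher-level genes. They were the cyclin gene CCNE1 and the transcription factor gene E2F1. For 19 measured mitotic genes it was -0.20 and -0.30, and 15 were below control under both by any amount, against 15.3% of all genes and 22.5% of the higher-level genes. Of these, KIF14, a mitotic kinesin gene, was at least 1.5-fold lower under both, with ratios of -0.64 and -0.61, where 0.571% of all genes were. CCNE1, E2F1 and KIF14 were named after their values were seen. The median log2 difference of siRNA-1 from siRNA-2 was 0.25 for the 24 replication genes, 0.08 for the further replication genes, 0.04 for the genes of S phase entry and 0.05 for the mitotic genes. With 1 array per siRNA these differences between lists were not tested.

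**Figure D4:**
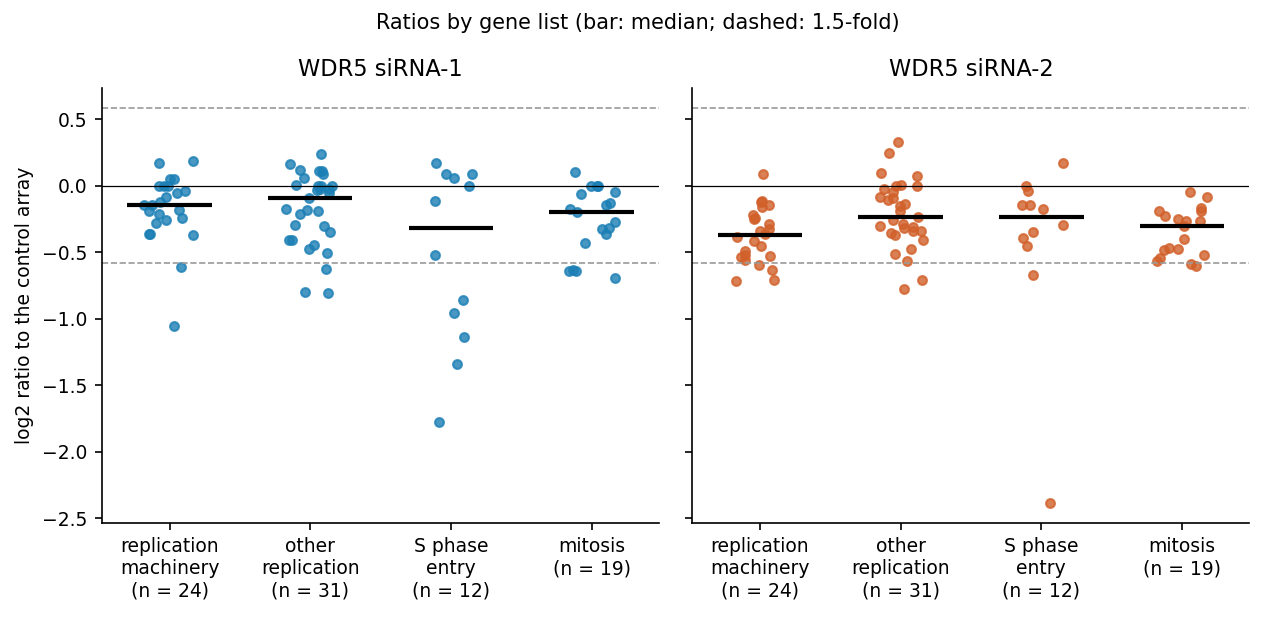
Log2 ratio to the control array (y axis) with siRNA-1 (left) and siRNA-2 (right) for the 24 replication machinery genes, 31 further replication genes, 12 genes of S phase entry and 19 mitotic genes. Each point is a gene on 1 array, bars are medians and dashed lines mark 1.5-fold; the lowest point in both panels is CCNE1, in the S phase entry list.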

How the data were processed

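The authors deposited 1 value table with 53617 probe sets and 1 column per array. The deposited values, from 1.34 to 14.9, were read as log2, and every fold rests on that reading. The submitters' processing notes name MAS5 without its role; for background correction, normalization and probe summary, the methods are not given in the sources used here. No further scaling was applied. The platform annotation named 16098 rows, and Entrez identifiers gave current symbols through the RefSeq table of GRCh38.p14. For 779 genes with several probe sets, the brightest by its mean of all arrays stood for the gene. This left 14884 genes, with no filter on level. Ratios were differences of log2 values. A gene was counted when at least 1.5-fold from control. With 1 array per group there is no test, and the number of arrays limits the precision.

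The members, lists, named genes and motifs were chosen with earlier results of these data known. Array values are given for genes at 1.5-fold with either siRNA, for the largest shared ratio in each group, and for others where they add to the account. The neighbour, microRNA and motif comparisons are descriptions, and the first 2 were added after the ratios were seen. The counting was tested on simulated data. Python 3.11.15 and pandas 2.3.3 were used. Alternatives were the mean of probe sets, quantile normalization, centring on all genes, a level filter at the median, fold limits of 0.32 on the log2 scale and of 2-fold, and list means; a level filter at the 75th percentile and centring on the genes above it were added after seeing the data.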

Additional observations from a re-analysis of the deposited data

Results flagged for a closer look

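For 4 replication genes the siRNA arrays lay on opposite sides of control, and the difference was not tested. CDC45 had a log2 ratio of 0.049 for siRNA-1 and of -0.49 for siRNA-2. GINS1 had 0.050 and -0.54, GINS3 0.19 and -0.16, and GINS4 0.17 and -0.71. All 4 encode subunits of the active helicase, whose other measured subunits, MCM2 to MCM7 and GINS2, were lower with both siRNAs. With siRNA-1, however, MCM6 (-0.003) and MCM2 (-0.04) were near control, as were CDC45 and GINS1. For these genes the split by sign rests on small differences. With probe sets averaged, GINS4 had -0.17 and -0.39 and was no longer among them. The 4 make up 16.7% of the 24 genes, near the 15.7% of all genes with opposite signs. Among genes at or above the 75th percentile of level that share was 29.2%. A ratio of exactly 0 with either siRNA, in 8328 of all genes but 2 of the 24, lowers such shares.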

How the results depend on the processing

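No array could be left out, and no paired analysis was possible because each group had 1 array. Averaging probe sets turned the GINS median with siRNA-1 from 0.11 to -0.058 and left 1 gene, not 2, at 1.5-fold higher on the siRNA-1 than on the siRNA-2 array. Averaging also left 3 genes lower with siRNA-2 (GINS4 at -0.39), as did quantile normalization (GINS2 at -0.54). Quantile normalization left 1 gene at 1.5-fold higher on the siRNA-1 array as well, and 1 gene (DBF4) was then higher with both siRNAs by any amount. With a limit of 0.32 on the log2 scale, 5 genes were lower with siRNA-1, 15 with siRNA-2 and 3 with both, 2 were lower and 9 higher on the siRNA-1 than on the siRNA-2 array, and 6 further replication genes were lower with both. At 2-fold, 1 gene (MCM3) was lower with siRNA-1, and 0 in each of the siRNA-2, siRNA-1 against siRNA-2 and further replication counts. The list mean gave -0.25 for the MCM hexamer and 0.042 for GINS with siRNA-1. Both level filters and both centrings kept all values within 1.5 times, the centrings because those medians were 0. The number lower with both was 18 or, with averaged probe sets, 19. The limits are the single control array, the exact ties and the lack of detection calls.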
